A study of Mus musculus with 14 samples.

Results

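The results below concern 4 protein kinase genes of mitogen-activated protein kinase (MAP kinase) signalling, Map4k4, Mapk6, Mapk8 and Mapk9, in C2C12, an established line of mouse myoblasts (muscle precursor cells). The members are all 76 exon bins of these 4 genes among the 4019 bins of 228 genes in the authors' deposited splicing table. An exon bin is a stretch of exon that the transcripts of a gene either use or skip as a unit. All 228 genes have at least 1 bin with an adjusted p under 0.1 in the authors' DEXSeq test over control, Qk5 depletion and Qk6/7 depletion together, and 192 have 1 under 0.05. The members were thus selected on the adjusted p of that test, and the call in each gene is given as a description.

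Values come from cells of 3 groups. Control cells received control small interfering RNA (siRNA), Qk5-depleted cells an siRNA specific to the Qk5 isoform of Quaking (Qk), and Qk6/7-depleted cells an siRNA specific to the Qk6 and Qk7 isoforms. All were C2C12 cells transfected with Lipofectamine 2000, with 3 replicates in each group, and all libraries were total RNA depleted of ribosomal RNA. The cells are 1 line, no label says that replicates came from separate cultures, and the authors' p-values therefore measure a spread that may be technical. The labels also hold a pan-Qk depletion with 1 replicate, which is not analysed here.

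Quaking is an RNA-binding protein that recognises the RNA word ACUAA followed by a pyrimidine. Its isoforms share the RNA-binding domain and differ at the C-terminal end, with Qk5 mainly in the nucleus, where it takes part in splicing, and Qk6 and Qk7 also in the cytoplasm. In the JNK cascade, signals such as cytokines and stress reach MAP kinase kinase kinases, then MAP kinase kinases, and lastly the c-Jun N-terminal kinases (JNKs), which phosphorylate c-Jun and other substrates. Map4k4 encodes a Ste20-type kinase that acts upstream of this cascade, Mapk8 encodes JNK1 and Mapk9 encodes JNK2. Mapk6 encodes ERK3, an atypical MAP kinase with a long C-terminal extension that lacks the usual activation-loop motif and activates the kinase MK5.

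The deposited tables hold no value per replicate. Each bin has a log2 fold of use, depleted over control and relative to the gene's other bins, for each depletion, a dispersion and 1 p-value with its adjusted value over the 3 conditions. A log2 fold therefore has no test or interval of its own in 1 depletion, and the depth per sample is unknown. The square root of the dispersion is given below as the coefficient of variation between replicates beyond counting noise, which is how DEXSeq's model defines it. Across all bins of the authors' deposited table its value at the median dispersion was 4.51%. Low values close to each other recur in uncalled bins, such as 2.33% at Mapk8 E004 and 2.30% at Mapk8 E005. Whether a low value is the bin's own spread was not tested.

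Sequences are shown for the bins on which the results turn, copied from GENCODE M21 transcripts, an annotation on the GRCm38 build. Coordinates of bins are on mm9, as deposited. Bins were matched to annotated exons by their lengths and their spacing inside the gene, and no coordinate was carried between builds. By this match 33 of 34 Map4k4 bins, 5 of 8 Mapk6 bins, 12 of 17 Mapk8 bins and 13 of 17 Mapk9 bins equal an annotated exon.

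The called bin of Map4k4, E017, is a coding exon of 162 nt at chr1:40058275-40058436 (plus strand). It is printed because it had the largest log2 fold, in size, of the bins of the 4 genes, with the word ACTAAC in capitals.
Map4k4 E017: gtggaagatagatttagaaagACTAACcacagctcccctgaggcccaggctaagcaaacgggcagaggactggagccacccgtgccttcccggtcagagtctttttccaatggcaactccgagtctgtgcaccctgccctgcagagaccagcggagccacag

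Mapk8 and Mapk9 each have 2 neighbouring exons of 72 nt, of which a transcript of the gene normally uses 1. They are printed because the called bin of Mapk9 begins at the end of the second, and because the first had the lowest log2 fold of the uncalled bins of both genes in both depletions. Capitals mark the bases that differ from the other 72-nt exon of the same gene.
Mapk8 E009, the first: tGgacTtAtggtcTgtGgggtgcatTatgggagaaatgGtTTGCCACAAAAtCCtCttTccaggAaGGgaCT
Mapk8 E008, the second: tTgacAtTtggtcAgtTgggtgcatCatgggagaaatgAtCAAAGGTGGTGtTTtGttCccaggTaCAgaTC
Mapk9 E009, the first: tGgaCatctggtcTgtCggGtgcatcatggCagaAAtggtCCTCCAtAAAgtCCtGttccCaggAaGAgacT
Mapk9 E010, the second: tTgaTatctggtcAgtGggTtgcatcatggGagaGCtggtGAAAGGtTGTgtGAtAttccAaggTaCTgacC

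The other 3 called bins are long and each begins directly at the end of another bin. Their starts are printed to show where the extra sequence begins, with the last 10 bases of the preceding bin in lower case and the first 20 bases of the called bin in capitals.
Mapk6 E005 into E004 (chr9:75241541-75243316, minus strand): ctctttgcagGTCAGTGTTGTATGGGAAAA
Mapk9 E010 into E011 (chr11:49687838-49689128, plus strand): ggtactgaccGTATCCTTCCCCAGAACCTT
Mapk8 E002 into E001 (chr14:34191084-34193980, minus strand): caaggtctcaTTATTTCTGAAATGATGTCT

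Of the 76 bins, 4 were called at the authors' adjusted p under 0.05, 1 in each gene, where 6.18% of all bins with an adjusted p in the authors' deposited table were called. Since every gene of the table has a bin at an adjusted p under 0.1, nothing is read from that count. The 4 called bins followed 4 different courses. Use of the Map4k4 exon was higher in Qk5 depletion and had a log2 fold of -0.23 in Qk6/7 depletion. The Mapk6 bin was lower in Qk5 and higher in Qk6/7 depletion, the Mapk8 bin was lower in Qk6/7 depletion and at control in Qk5 depletion, and the Mapk9 bin was lower in both.

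**Figure D1:**
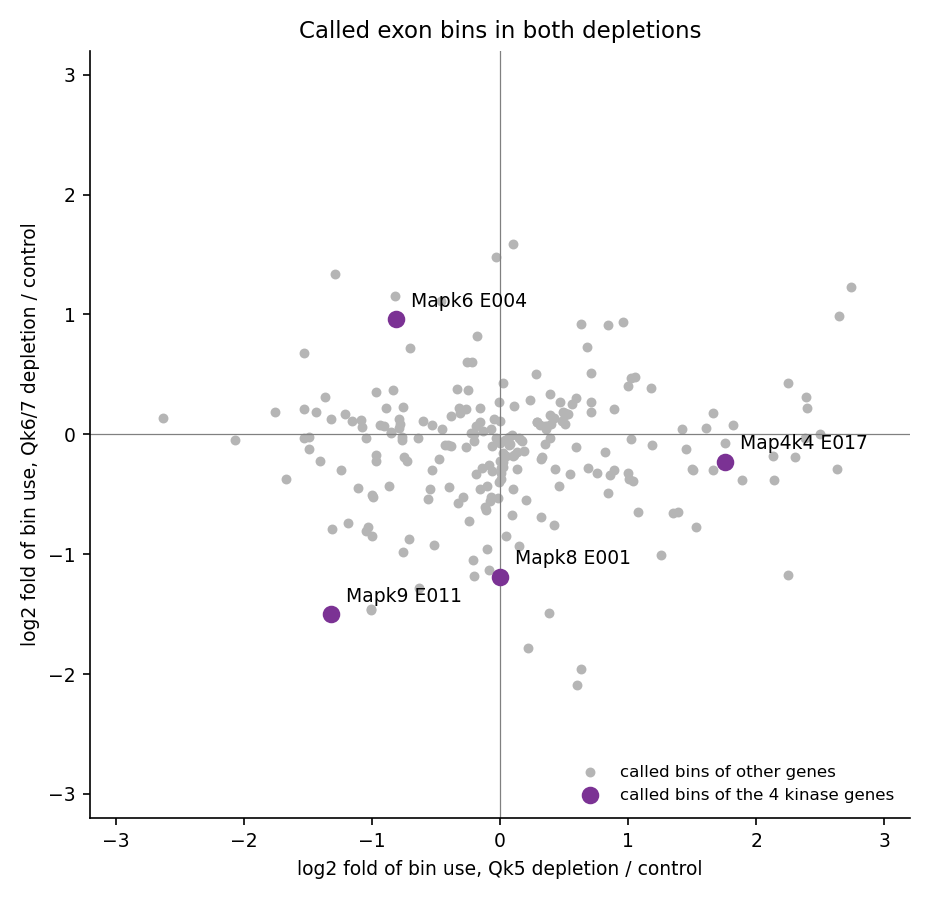
Log2 fold of bin use in Qk5 depletion (x axis) against Qk6/7 depletion (y axis), both over control, for the called bins of the 4 kinase genes (purple) and 225 called bins of other genes (grey), with 2 more bins of other genes outside the axes. The 4 kinase bins lie in different parts of the plane, with Map4k4 E017 far to the right at 1.76, Mapk8 E001 on the vertical line at -1.19 and Mapk9 E011 at -1.32 and -1.50. Both axes share the control libraries.

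None of the other 72 bins passed the test, and every one had an adjusted p of 1 in the authors' deposited table. No bin lay near the threshold: the largest adjusted p inside it was 0.00034 (Mapk9 E011). Over the 76 bins the median absolute log2 fold was 0.07 in Qk5 depletion and 0.06 in Qk6/7 depletion, beside 0.14 and 0.12 over all bins of the authors' deposited table. A log2 fold of 1 or more in either direction was reached by 3 bins in Qk5 depletion (Map4k4 E017, Mapk8 E014 and Mapk9 E011), where 6.78% of all bins did so in the authors' deposited table. Of these, 2 were higher (2.78% of all bins) and 1 was lower (4.0%). In Qk6/7 depletion 2 bins reached it, against 4.10% of all bins in the authors' deposited table. Both, Mapk8 E001 and Mapk9 E011, were lower (2.32% of all bins) and 0 were higher (1.78%). Mapk8 E014 is the 1 uncalled bin among them.

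**Figure D2:**
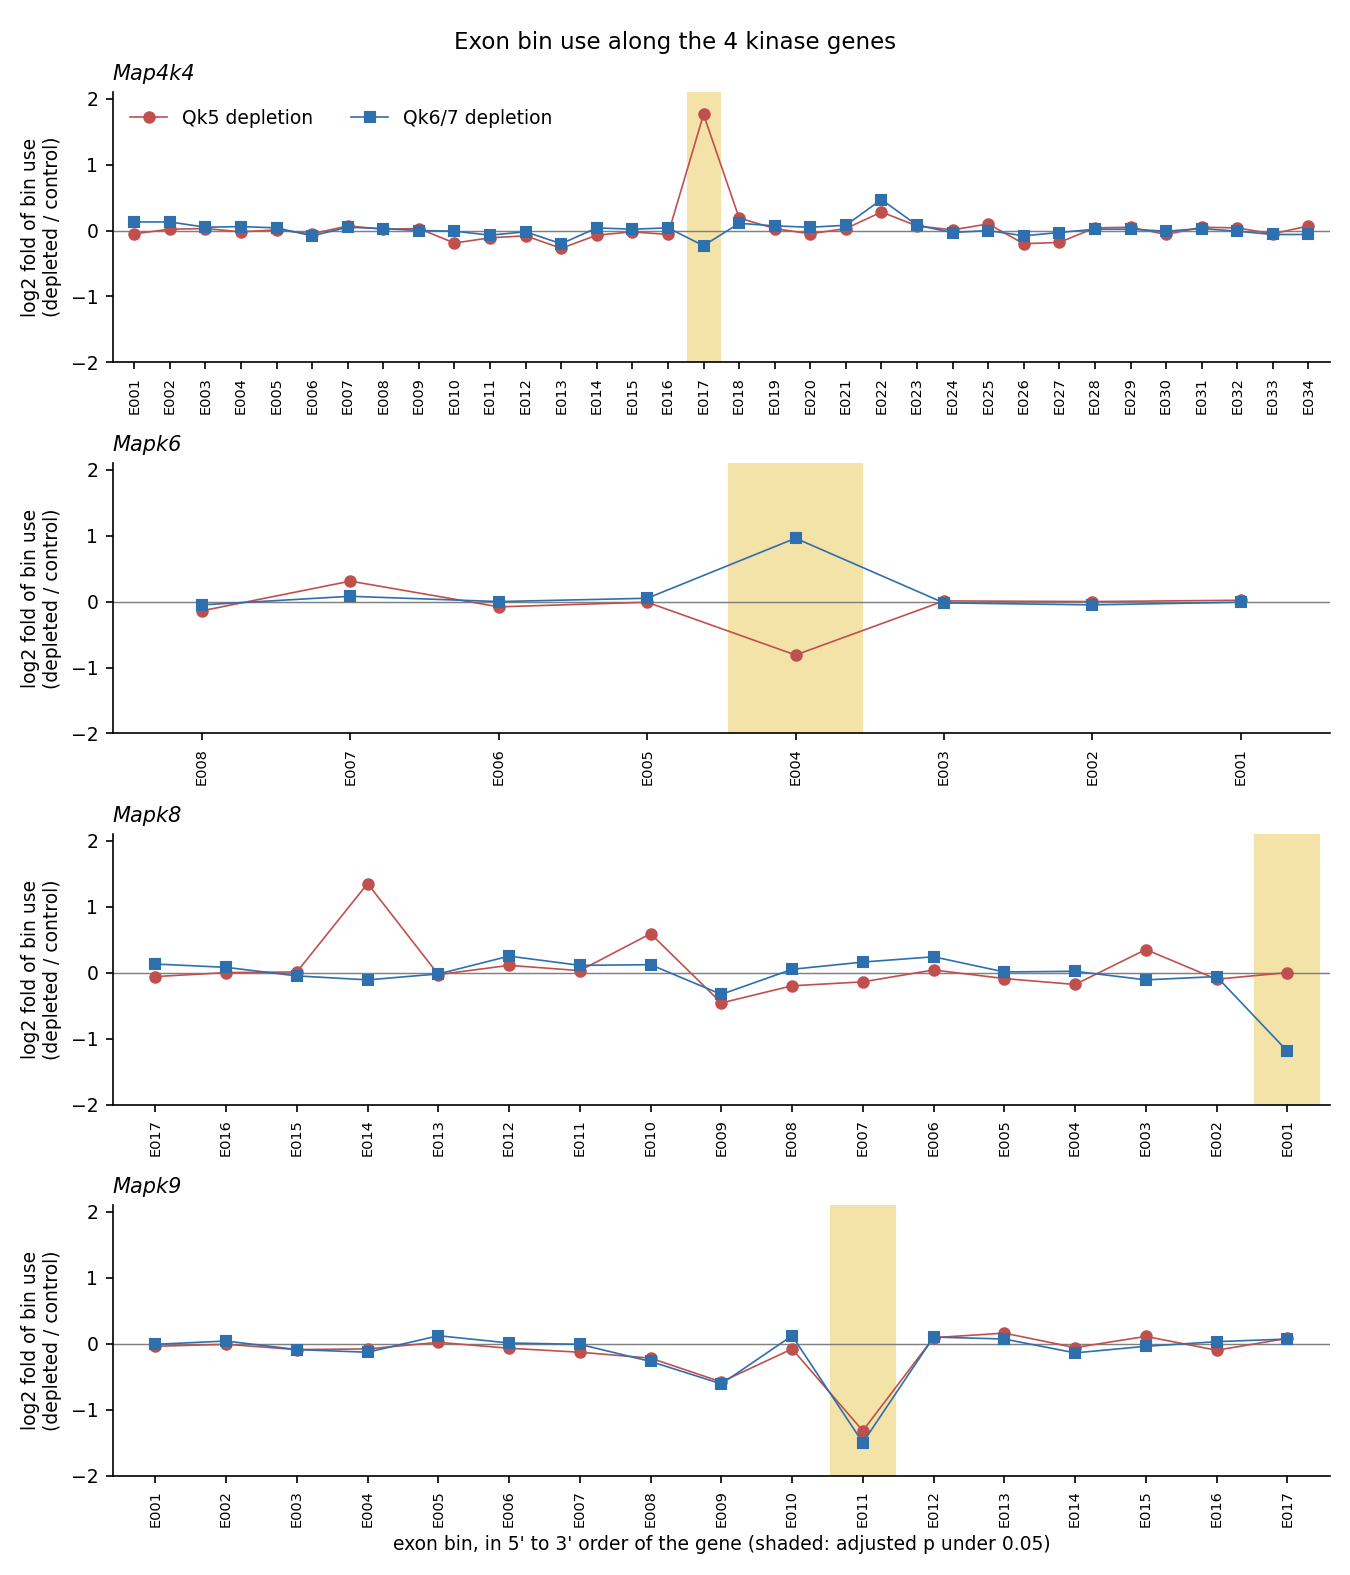
Log2 fold of use for every exon bin of each gene, in 5′ to 3′ order, in Qk5 depletion (red circles) and Qk6/7 depletion (blue squares), with called bins shaded. Each gene shows 1 shaded bin against bins mostly within 0.2 of control, and Mapk8 also has an unshaded bin, E014, at 1.35 in Qk5 depletion.

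Map4k4 acts at the top of the cascade, with an N-terminal kinase domain, an intermediate region and a C-terminal citron homology domain. Its gene has 34 bins on chromosome 1. Use of exon E017 had a log2 fold of 1.76 in Qk5 depletion, 3.39 times the control use, and of -0.23 in Qk6/7 depletion, 0.853 times the control use (the authors' DEXSeq adjusted p = 1.86e-32 over the 3 conditions) in the authors' deposited table. Between the depletions the log2 fold was -1.99, Qk6/7 over Qk5, in the authors' deposited table. By p-value this bin ranked number 3 in the authors' deposited table, and its coefficient of variation between replicates was 2.30%, below that at the table's median dispersion.

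The exon's neighbours had values near control. E016, 680 nt upstream, had log2 folds of -0.06 and 0.04 in Qk5 and Qk6/7 depletion, and E018, 2165 nt downstream, had 0.19 and 0.11, in the authors' deposited table. Among the 33 uncalled bins the lowest log2 fold in Qk5 depletion was -0.27, at E013, another coding exon of 162 nt, and the highest was 0.28, at E022, an exon of 9 nt, in the authors' deposited table. E022 also had the highest value in Qk6/7 depletion, 0.47, and the lowest of the gene there was that of E017 itself. Of the 34 bins, 31 lay within 0.2 of control in Qk5 depletion and 32 in Qk6/7 depletion.

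In the annotation E017 is a cassette exon, one that transcripts include or skip as a unit. Of the 10 coding transcripts of Map4k4 that span it, 5 contain it and 5 skip it. It is 54 codons long, begins at a codon boundary and holds no stop codon in frame, so the reading frame is kept when it is skipped. In the transcript from which it was copied it covers codons 537 to 590 of the 1288 in the annotated coding sequence. This places it in the intermediate region between the kinase and citron homology domains. The word ACTAAC, which is the Quaking word in DNA letters, begins at base 22 of the exon. On the transcript strand ACTAAC or ACTAAT was found in 2.22% of 41206 windows of 162 bases, taken from the start of internal coding exons of at least that length, and in 3.73% on either strand. A word of this kind is a match of letters, and binding was not measured here. The introns beside the exon and the other exons of the gene were not searched.

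Other alternative exons of the gene lie close by. E015 (93 nt, which adjoins E016) is skipped by 6 of 9 spanning coding transcripts, E018 (231 nt) by 5 of 10, E022 by 5 of 8 and E025 (192 nt) by 5 of 7. Their log2 folds in Qk5 depletion were -0.02, 0.19, 0.28 and 0.10, each with an adjusted p of 1 in the authors' deposited table. Of the annotated alternative exons of Map4k4, then, E017 was the 1 called.

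**Figure D3:**
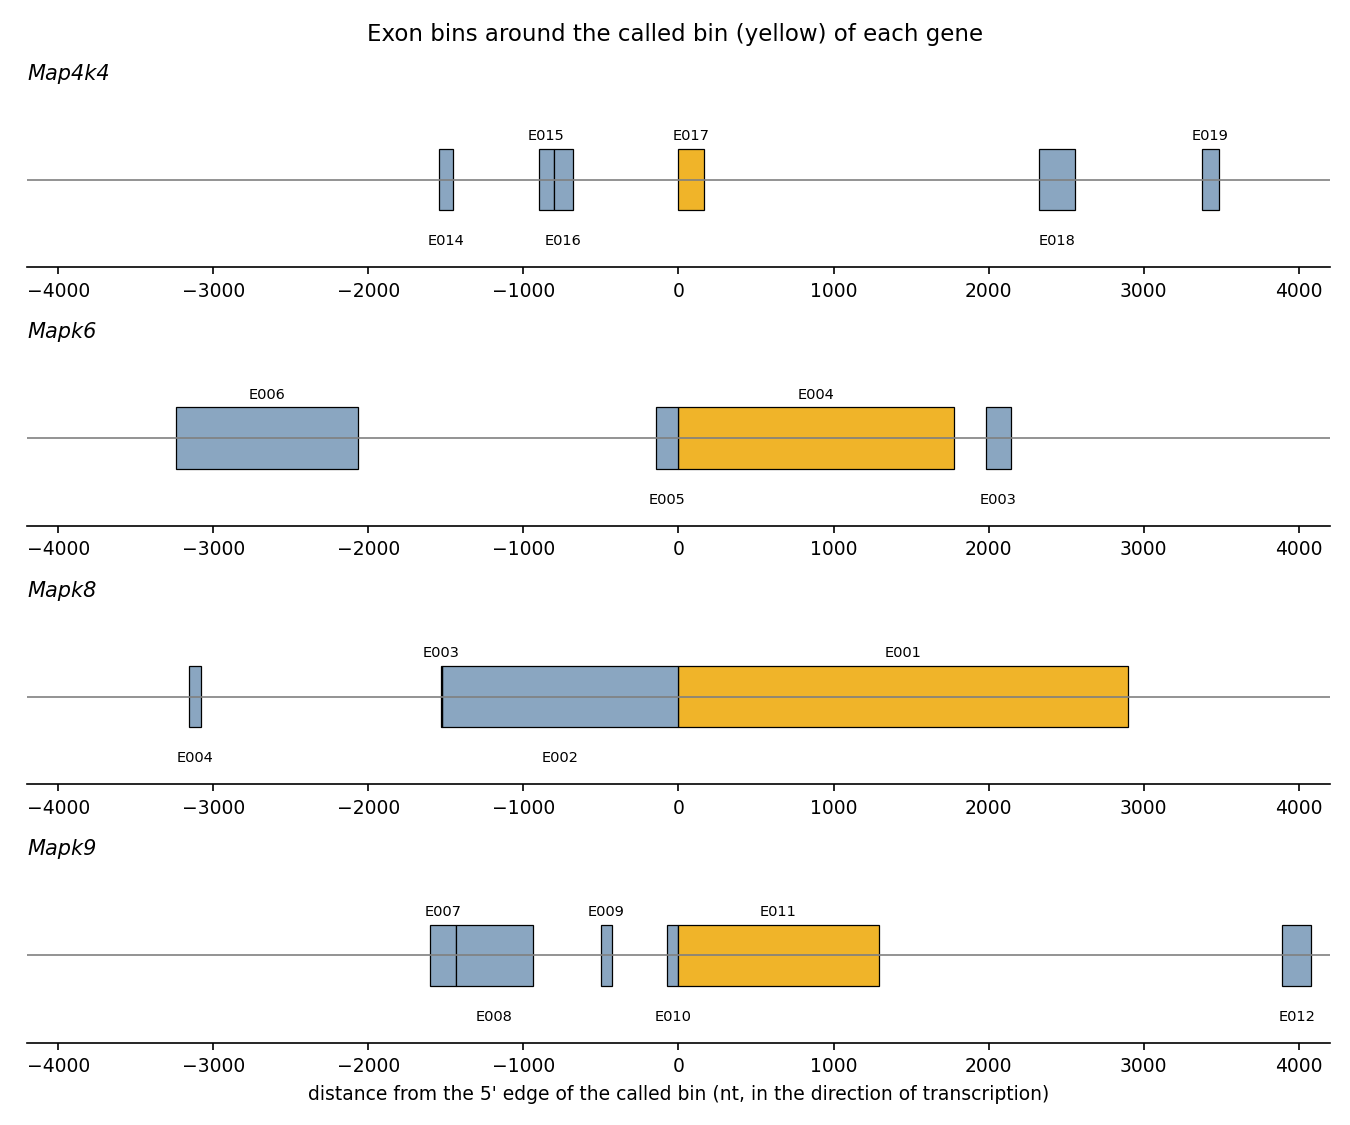
Exon bins (boxes, to scale) around the called bin (yellow) of each gene, by distance in nt from that bin's 5′ edge in the direction of transcription. Map4k4 E017 stands alone between introns, while the called bins of Mapk6, Mapk8 and Mapk9 begin where E005, E002 and E010 end.

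Mapk6, the ERK3 gene, has 8 bins on chromosome 9. Its called bin E004 is 1776 nt long and extends the coding exon E005 (145 nt) into the following intron, stopping 204 nt short of the next exon, E003. The first bases of the bin read GT, as at the start of an intron. E004 holds no annotated coding sequence: both coding transcripts skip it, and the 1 annotated transcript that contains it, labelled a retained intron, ends in it.

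Use of E004 had a log2 fold of -0.81 in Qk5 depletion, 0.570 times the control use, and of 0.96 in Qk6/7 depletion, 1.95 times the control use (the authors' DEXSeq adjusted p = 1.91e-06) in the authors' deposited table. The difference of Qk6/7 from Qk5 depletion was 1.77 on the log2 scale in the authors' deposited table. The coefficient of variation between replicates was 9.31%, above that at the median dispersion. The exon it extends was near control, with log2 folds of -0.01 and 0.05 for E005, and so was the next exon, with 0.01 and -0.02 for E003, in the authors' deposited table.

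Of the remaining bins of Mapk6 none passed the test. Log2 folds ran from -0.14 (E008) to 0.31 (E007, a 158-nt noncoding exon near the 5′ end) in Qk5 depletion and from -0.05 (E002, a 202-nt coding exon, and E008) to 0.08 (E007) in Qk6/7 depletion, by the authors' deposited table. E001, the 2247-nt last bin, had log2 folds of 0.02 and -0.01 and an unadjusted p of 0.0324 in the authors' deposited table. The word ACTAAC or ACTAAT occurred once on the transcript strand of E004, at base 1550, and was present in 38.1% of 15450 windows of the same length from the 3′ ends of coding transcripts. The cleavage signal word AATAAA, found in 83.4% of those windows, was not among the letters of E004 on that strand. E004 lies in an intron of the coding transcripts, so these shares are not from like sequence and nothing is read from the contrast.

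Mapk8, the JNK1 gene, has 17 bins on chromosome 14. Its called bin E001 is the distal 2897 nt of the last exon, beyond the coding sequence. The proximal bin E002, 1525 nt long, holds the end of the coding sequence and the start of the 3′ untranslated region. A single annotated transcript, a coding one, contains E001. The same transcript is also the only one that contains the whole of E002, since the other coding transcripts end inside E002. In the annotation the called bin is thus part, but not all, of what the long form of the last exon adds.

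In Qk6/7 depletion E001 had a log2 fold of -1.19, 0.438 times the control use, while its value in Qk5 depletion was 0 (the authors' DEXSeq adjusted p = 3.71e-06) in the authors' deposited table. The adjoining E002 had log2 folds of -0.06 and -0.10 in the same order in the authors' deposited table. In Qk6/7 depletion the distal part was thus lower relative to the gene, with the proximal part near control. The coefficient of variation between replicates of E001 was 2.39%, below that at the median dispersion, and that of E002 was 15.6%. It leaves out counting noise, and the counts per bin are unknown, so the precision of these bins cannot be ranked by it.

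The sequence of E001 ends as a last exon commonly does, with its only AATAAA beginning 26 nt before the bin's end. No AATAAA was found on the transcript strand of E002. The word was held by 81.8% of 16752 windows of that length, all from the 3′ ends of coding transcripts. E002 does not reach the end of the transcript that contains it, so the windows are not a like background. E001 holds 1 ACTAAT on the transcript strand, at base 1172, printed here with the word in capitals because it is the 1 Quaking word of the called bin.
Mapk8 E001 site: ggtctcgtacccACTAATacatagtgacca
A word of this kind was present in 52.3% of 9970 windows of 2897 bases from the 3′ ends of coding transcripts, so its presence is common at this length. E002 held none on the transcript strand, where 34.4% of windows of its length from such 3′ ends did.

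Among the uncalled Mapk8 bins, 2 other long extensions had the highest values in Qk5 depletion. E014 (1177 nt) extends the 130-nt exon E015 and had log2 folds of 1.35 in Qk5 and -0.11 in Qk6/7 depletion (unadjusted p = 0.245) in the authors' deposited table. E010 (2004 nt) extends the 166-nt exon E011 and had 0.59 and 0.12 (unadjusted p = 0.0192) in the authors' deposited table. Both had an adjusted p of 1, both hold no annotated coding sequence, and each is part of 1 annotated transcript, labelled a retained intron. The lowest value in Qk5 depletion was -0.46, at the 72-nt exon E009, and the highest in Qk6/7 depletion was 0.25, at the 139-nt coding exon E012, in the authors' deposited table. Of the 17 bins, 13 lay within 0.2 of control in each depletion.

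Mapk9, the JNK2 gene, has 17 bins on chromosome 11. The called bin E011 is 1291 nt long and extends the second 72-nt exon, E010, into the intron, which runs a further 2604 nt to E012. The bin starts with GT, overlaps no annotated coding sequence and is skipped by all 7 coding transcripts that span it. The 1 annotated transcript that contains it, a processed transcript without coding sequence, has it as part of its last exon. At its very end lie 2 overlapping AATAAA words, the last beginning 10 nt before the bin's end, where 79.9% of 17945 windows of this length from the 3′ ends of coding transcripts held the word. ACTAAC or ACTAAT occurred once on the transcript strand, at base 690, a word present in 31.0% of those windows. E011 too lies in an intron of the coding transcripts, so these shares are not from like sequence. On the opposite strand, which the RNA does not carry, the same search found 0 such words in Map4k4 E017, 1 in Mapk6 E004, 5 in Mapk8 E001 and 2 in Mapk9 E011.

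Use of E011 had a log2 fold of -1.32 in Qk5 depletion, 0.401 times the control use, and of -1.50 in Qk6/7 depletion, 0.354 times the control use (the authors' DEXSeq adjusted p = 0.00034) in the authors' deposited table. Among the 4 called bins it was the 1 with the same direction in both depletions at over 1 on the log2 scale, and the depletions differed by -0.18 in the authors' deposited table. The controls are the same libraries in both comparisons, so the shared direction is not an independent repeat. Its coefficient of variation between replicates was 9.08%. The exon it extends had log2 folds of -0.08 and 0.12 (E010) and the next exon 0.09 and 0.10 (E012) in the authors' deposited table, so use on either side was near control. Of the 16 uncalled bins of Mapk9 the lowest was E009, described below, and the highest in Qk5 depletion was the 125-nt coding exon E013 at 0.16 in the authors' deposited table. In Qk6/7 depletion the highest were E010 and the 40-nt bin E005, both at 0.12 in the authors' deposited table. E005 adjoins the 99-nt bin E006, which stood at 0.01 there.

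In 3 of the 4 genes, then, the called bin abuts another bin and lies outside coding sequence, and in Map4k4 it is a separate coding exon. Over the called bins of all other genes, 28.6% abut a neighbouring bin and the median length is 975 nt. The libraries were made from RNA depleted of ribosomal RNA, which retains unspliced RNA. For Mapk6 E004 and Mapk9 E011, reads from a transcript that ends in the bin and reads from unspliced RNA cannot be told apart in these values. The sources used here do not give whether the counting used strand. For the gene levels given below, fewer cells of a type and less of a gene's RNA per cell cannot be told apart in these bulk samples.

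The JNK genes Mapk8 and Mapk9 are paralogs with the same exon layout, so their bins can be set side by side. In 5′ to 3′ order, 9 bins of Mapk8 have a bin of equal length in Mapk9. The 2 exons of 72 nt encode alternative versions of a stretch of the kinase domain that bears on substrate choice. The first exons of the 2 genes are identical at 59 of 72 bases (81.9%) and the second at 57 (79.2%), whereas the first and second exon of the same gene match at 62.5% in Mapk8 and 65.3% in Mapk9. By sequence each exon is thus closer to its counterpart in the other gene than to its alternative beside it.

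Among these 9 bins the first 72-nt exon had the lowest log2 fold of either gene in either depletion. In Qk5 depletion it stood at -0.46 in Mapk8 and -0.58 in Mapk9, and in Qk6/7 depletion at -0.33 and -0.61, in the authors' deposited table. The second 72-nt exon had -0.20 and -0.08 in Qk5 depletion and 0.05 and 0.12 in Qk6/7 depletion, by the authors' deposited table. None of these 4 bins passed the test: the unadjusted p-values of the first exon were 0.863 and 0.692, and those of the second 0.669 and 0.638, in the authors' deposited table. The authors' test thus did not separate these low values from control. The 5-nt bin at the last exon (E003 in Mapk8, E016 in Mapk9), whose use shifts the reading frame at the C-terminal end, had log2 folds of 0.35 and -0.10 in Qk5 and of -0.11 and 0.03 in Qk6/7 depletion, with unadjusted p of 0.915 and 0.991, in the authors' deposited table.

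**Figure D4:**
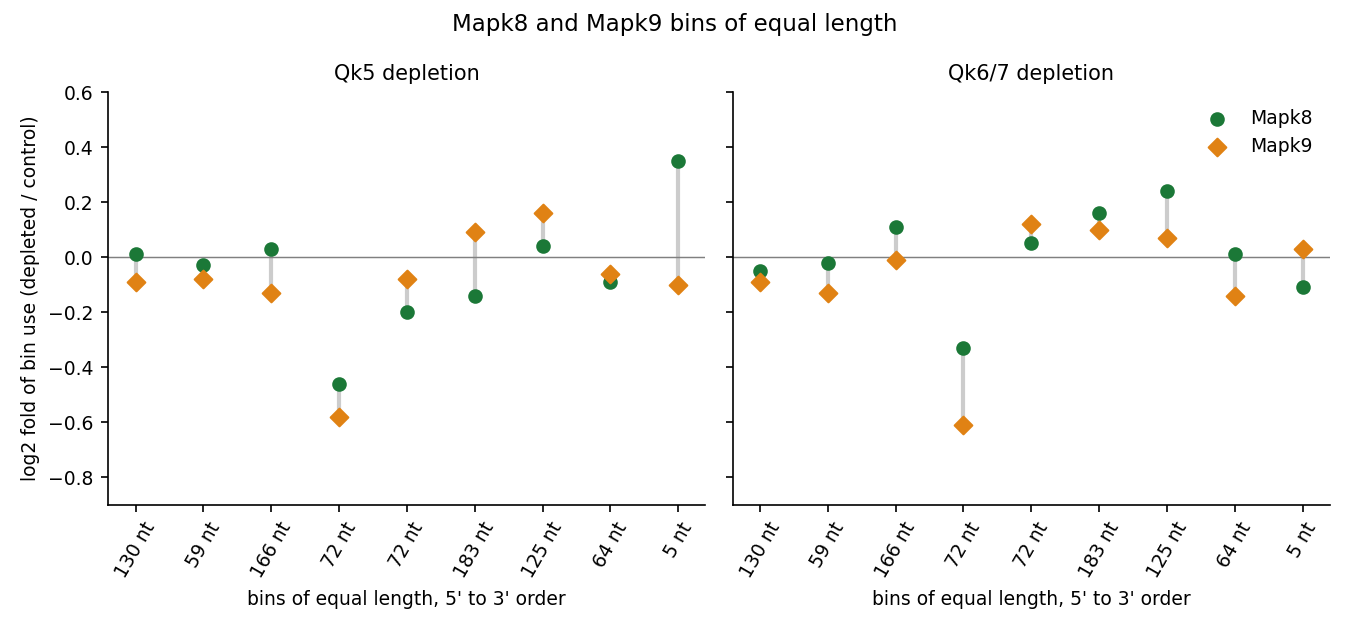
Log2 fold of use of the 9 bins of equal length in Mapk8 (green circles) and Mapk9 (orange diamonds), in 5′ to 3′ order, in Qk5 depletion (left) and Qk6/7 depletion (right). The first 72-nt exon is the lowest point in both genes and both panels, between -0.33 and -0.61, and none of the bins drawn was called.

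The long extensions of these genes do not correspond in the same way. Mapk9 also has an extension of its 166-nt exon E007, the 496-nt bin E008, at the place of Mapk8 E010, and it had log2 folds of -0.22 and -0.27 (unadjusted p = 0.67) where Mapk8 E010 had 0.59 and 0.12, in the authors' deposited table. Mapk8 has no bin at the place of Mapk9 E011. In Mapk9 everything of the last exon beyond the 5-nt bin E016 is 1 bin, E017 (3275 nt), with log2 folds of 0.08 and 0.07 in the authors' deposited table. It is not divided into a proximal and a distal part, so Mapk8 E001 has no bin to be compared with.

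None of the 4 genes is among the 1036 genes of the authors' deposited expression table, which holds genes with a DESeq adjusted p under 0.1 in at least 1 comparison. Their RNA levels were thus not called in either depletion, or were not tested. For Qk the authors' deposited table gives mean normalized counts of 5875 in control cells, 3267 after Qk5 depletion (DESeq adjusted p = 0.00246) and 5271 after that of Qk6/7 (adjusted p = 1). These are for the whole gene, so depletion of single isoforms cannot be checked from them.

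A list of 71 other genes of JNK, ERK and p38 signalling was looked up in both tables, and 63 were in neither. The expression table holds 5 of them. Dusp9, a phosphatase that inactivates MAP kinases, fell from a mean of 608 to 304 normalized counts in Qk5 depletion (0.499-fold, the authors' DESeq adjusted p = 0.000848) and stood at 918 in Qk6/7 depletion (1.51-fold, adjusted p = 0.191) by the authors' deposited table. It was the 1 gene of the list lowered in Qk5 depletion, where 0.801% of all genes tested were lowered. None was called raised in Qk5 depletion by DESeq (2.17% of all genes tested were), and at an unadjusted p under 0.05 the 5 genes in the table split into 0 raised and 4 lowered. These 5 entered the table by an adjusted p under 0.1 in at least 1 comparison, so nothing is read from this split.

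In Qk6/7 depletion 2 genes of the list were raised, where 0.610% of all genes tested were. Fosl1, an AP-1 transcription factor subunit that can pair with c-Jun, rose from 1089 to 1966 normalized counts (1.81-fold, the authors' DESeq adjusted p = 0.0155) by the authors' deposited table. Dusp5, a phosphatase of ERK, rose from 538 to 941 (1.75-fold, the authors' DESeq adjusted p = 0.0313) by the authors' deposited table. In Qk5 depletion Fosl1 stood at 0.993-fold and Dusp5 at 0.729-fold, with adjusted p of 1 and 0.232, in the authors' deposited table. None was called lowered in Qk6/7 depletion by DESeq (1.29% of all genes tested were), and at an unadjusted p under 0.05 the 5 genes split into 3 raised and 0 lowered. Dusp2, another MAP kinase phosphatase, stood at 0.535-fold in Qk5 depletion (DESeq adjusted p = 0.0571) and 0.981-fold in Qk6/7 depletion (adjusted p = 1), by the authors' deposited table. Mapkapk2, a kinase activated by p38, stood at 0.659-fold in Qk5 depletion (DESeq adjusted p = 0.0962) and 1.03-fold in Qk6/7 depletion (adjusted p = 1), by the authors' deposited table. Neither was called at 0.05. The splits in both depletions cover the 5 genes in the table, which its adjusted p threshold chose, not all 71. Nothing is read from them.

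Of the list, 3 genes have bins in the splicing table, 60 in all, with 1 called bin each, a count that the choice of genes for that table also shaped. Spag9, which encodes a scaffold that binds JNK, had E036, a separate 39-nt exon, at log2 folds of -1.37 in Qk5 and 0.31 in Qk6/7 depletion (the authors' DEXSeq adjusted p = 0.00679) in the authors' deposited table. Cdc42 encodes a small GTPase that can start the JNK cascade. Its bin E004 (645 nt), near the 3′ end, had 1.66 and 0.18 (the authors' DEXSeq adjusted p = 7.1e-06), and the preceding bin, the 111-nt E005, had -1.16 and -0.41 with an adjusted p of 1, in the authors' deposited table. Rac1, another such GTPase, had its 1625-nt last bin E001 called at log2 folds of only 0.07 and -0.02 (the authors' DEXSeq adjusted p = 0.0487) in the authors' deposited table.

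The cells' identity can be checked only among genes of the expression table. Of 7 myoblast markers it holds Myf5, whose mean was 810 in control cells, 970 in Qk5 depletion and 1521 in Qk6/7 depletion, all in normalized counts of the authors' deposited table. Of 9 markers of differentiated muscle it holds 7 (Myog, Acta1, Mylpf, Ckm, Myh3, Ttn and Mb), all 7 called higher in Qk5 depletion and none in Qk6/7 depletion by the authors' DESeq test. Over all genes tested, 2.17% were called raised in Qk5 depletion and 0.610% in Qk6/7 depletion. The 7 are in the table because they passed its adjusted p threshold of 0.1, so their count is no test of the markers. Summed over these 7 alone, the means were 2427 normalized counts in control cells, 6028 in Qk5 depletion and 3288 in Qk6/7 depletion, by the authors' deposited table. In Qk5 depletion, where these markers were higher, use of Map4k4 E017 was higher and that of Mapk6 E004 and Mapk9 E011 lower. In Qk6/7 depletion Myf5 was the 1 marker called, and higher (DESeq adjusted p = 0.00586, from the authors' deposited table), while use of Mapk6 E004 was higher and that of Mapk8 E001 and Mapk9 E011 lower. The part of the markers in these results was not tested. Of 5 fibroblast markers Dcn and Col1a1 are in the table, at a summed mean of 4393 in control cells, 8826 in Qk5 and 5025 in Qk6/7 depletion, with Dcn called higher in Qk5 depletion. Of the 4 adipocyte markers none is in the table.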

How the data were processed

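RNA from C2C12 cells was sequenced by the authors, with 3 replicates each of control, Qk5 depletion and Qk6/7 depletion. Bowtie2, TopHat2, SAMtools, bedtools and DESeq were used on the mm9 build, per the submitters' processing notes, without versions. The splicing tables hold, per the file headers, the authors' log2 fold of bin use, a dispersion score, and a p-value with its adjusted value. The expression table holds, per the file headers, the authors' mean signal (counts divided by size factors), fold (ratio), log2 fold, p-value and a direction score. Its 1 row with broken fields was rejoined, and the numbers of genes tested, 16604 and 16564, are those whose Benjamini-Hochberg values match the deposited ones best. How replicate 1's 2 runs were joined is not given in the sources used here.

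No model was refitted, since no value per replicate is in the tables, so no self-test was needed. Bins were called at the authors' adjusted p under 0.05. Members and lists were chosen with earlier results of these data known. Named bins were every called member bin, its neighbours, and each gene's highest and lowest bin in each depletion. Other bins given by value (other alternative exons of Map4k4, long extensions, last-exon bins, bins shared by Mapk8 and Mapk9, and those at a low unadjusted p) were chosen after their values were seen, as were Dusp2 and Mapkapk2 for values and Cdc42 E005. For likeness, the 3 called bins of other genes nearest in both log2 folds were taken. Of the 71 listed pathway genes, every gene in a table was named, with values where called. Words were searched on both strands of GENCODE M21 (GRCm38) transcript sequence, among member bins only in the called bins and Mapk8 E002. Python 3.11.15 and pandas 2.3.3 were used.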

Additional observations from a re-analysis of the deposited data

How the results depend on the processing

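The tables hold no value per replicate, no mean level per bin and no depth, so leaving out a replicate and a filter on the bin's mean level were not run. No paired analysis was possible because the tables carry no replicate columns. The count of 4 called bins was 4 at an adjusted p under 0.01 and under 0.1, and 7 at an unadjusted p under 0.05, which adds Map4k4 E013, Mapk6 E001 and Mapk8 E010. A log2 fold of at least 0.5 gave 6 bins in Qk5 and 4 in Qk6/7 depletion, and of at least 1.5 gave 1 bin in each, against 3 and 2 at 1. Subtracting the gene's median log2 fold changed neither count, nor did keeping only bins with an adjusted p, and it moved the 8 log2 folds of the called bins by at most 0.07.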

Other observations

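Called bins of other genes with the most similar values in both depletions were looked up for each called kinase bin, by the distance between their log2 folds in Qk5 and Qk6/7 depletion. This describes 2 values per bin from comparisons that share their controls. For Map4k4 E017 the nearest 3 all belonged to Dclk1 (E026, E016 and E015, at distances of 0.122, 0.160 and 0.198), a single gene whose bins share their reads' source. For Mapk6 E004 they were Capzb E012 (-0.82 and 1.15 in the authors' deposited table), Gpr137 E008 and Celf2 E016, at distances of 0.190, 0.264 and 0.381. For Mapk8 E001 they were Mprip E009 (-0.09 and -1.13 in the authors' deposited table), 1700052N19Rik E002 and Celf1 E018, at 0.108, 0.20 and 0.251. For Mapk9 E011 the nearest were Mettl6 E002, Uspl1 E003 and Dusp22 E009, at 0.311, 0.313 and 0.710.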
